A study of Homo sapiens with 6 samples.

Results

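The RNAs described here were the RNA of the signal recognition particle (7SL, genes RN7SL1, RN7SL2 and RN7SL3), 7SK (RN7SK), and the catalytic RNAs of RNase MRP (RMRP) and RNase P (RPPH1). They were found by symbol in the deposited RIP-seq table, where the 6 symbols held 7 of 58302 rows, since RMRP had 2 rows with different identifiers. They were selected on measured FPKM: RN7SL2 held the highest value in all 4 columns of that table. Its rank and its difference between RIP and Input are therefore a description. SW480 and DLD-1 are established human colorectal cancer cell lines, here labelled wild type and untreated. Each line gave 1 Input library of total RNA, 1 RIP-seq library, from RNA pulled down with an antibody to NAT10, an acetyltransferase that acts on RNA, and 1 acRIP-seq library, from RNA pulled down with an antibody to N4-acetylcytidine (ac4C). All were made with a kit for long RNA. With 1 library per group no replicate error existed, so every difference compares libraries and not conditions, and no p-value was computed.

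All 6 RNAs are made by RNA polymerase III and work inside ribonucleoprotein particles. 7SL is the scaffold of the signal recognition particle, which brings ribosomes that make secreted and membrane proteins to the endoplasmic reticulum. 7SK holds the elongation kinase P-TEFb in an inactive complex with HEXIM proteins, and RNase P and RNase MRP cut precursors of tRNA and ribosomal RNA. RN7SK, RMRP and RPPH1 have their promoters upstream of the transcribed part, whereas those of 7SL genes lie partly within it.

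RPPH1 and RMRP each share a short stretch of DNA with the start of a protein-coding gene on the other strand, and both stretches are shown because the ac4C peak nearest to any of the 6 RNAs lay partly in one of them. The sequences are RefSeq's for GRCh38.p14, taken as the 250 bases upstream of PARP2 and of CCDC107 and printed on the strand of the RNA gene. Capitals mark the octamer ATGCAAAT and the TATA core TATAA on either strand. The octamer and TATAA do not overlap, but before RPPH1 TATAA is read on both strands, shifted by a single base, so the letters TTATAA are in capitals.
RPPH1, chr14:20343385-20343634, minus strand: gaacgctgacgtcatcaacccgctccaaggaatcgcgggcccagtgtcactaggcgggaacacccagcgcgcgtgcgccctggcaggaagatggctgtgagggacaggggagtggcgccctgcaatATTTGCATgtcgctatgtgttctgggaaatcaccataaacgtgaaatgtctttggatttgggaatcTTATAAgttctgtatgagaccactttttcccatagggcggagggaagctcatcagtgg
RMRP, chr9:35658042-35658291, minus strand: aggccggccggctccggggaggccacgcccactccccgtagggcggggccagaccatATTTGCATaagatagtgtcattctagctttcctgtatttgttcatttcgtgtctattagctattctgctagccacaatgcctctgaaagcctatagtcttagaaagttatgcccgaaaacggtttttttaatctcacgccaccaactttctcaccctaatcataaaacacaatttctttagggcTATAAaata
The first sequence ends with the first 27 bases of RPPH1, and the second stops short of RMRP. The octamer lay 97 to 90 bases upstream of the first base of RPPH1 and 215 to 208 bases upstream of that of RMRP. TATAA lay 30 to 26 bases upstream in RPPH1 and 31 to 27 bases upstream in RMRP. Among 35116 such 250-base stretches in RefSeq, 1.63% held the octamer, 18.9% held TATAA and 0.490% held both. These are matches of letters only. No sequence of the 6 RNAs themselves is printed.

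Only 2 of the 6 RNAs, RN7SL2 and RN7SL3, had a value above 0. RN7SL1, RN7SK, RPPH1 and both rows of RMRP were listed at 0 in the 4 columns of the RIP-seq table and in the 2 Input columns of the acRIP-seq table. For RN7SK, which is abundant in human cells, 3 reads would have been listed at 0.305 to 0.835 FPKM (fragments per kilobase of gene, scaled to library size), given its RefSeq length of 332 bases. For RPPH1 the same 3 reads would have stood at 0.297 to 0.813 FPKM, and for RMRP at 0.375 to 1.03 FPKM. The files do not say whether reads of these RNAs were removed, given to another row or absent. No ratio was therefore computed for these 4 RNAs.

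The places of these genes bear on which row a read could be given to. In RefSeq on GRCh38.p14, RN7SL1 (14:49586580-49586878) lies inside the span of RPS29, a ribosomal protein gene. RPS29 stood at 7.13 FPKM in RIP and 11.9 in Input under the label SW480, at 17.6 and 6.15 under DLD-1, and at 328 and 56.9 in the acRIP-table Inputs of SW480 and DLD-1. RN7SL2 (14:49862551-49862849) lies in the span of an uncharacterised long non-coding RNA, and RN7SL3 (14:49853616-49853914) lies 827 bases from NEMF. RN7SK (6:52995620-52995951) is 335 bases from GSTA4, RMRP (9:35657750-35658019) 272 bases from CCDC107, and RPPH1 (14:20343071-20343411) 223 bases from PARP2. PARP2, which makes a DNA repair enzyme, was measured in every column, at 7.97 to 26.2 FPKM, beside RPPH1 at 0.

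RN7SL2 had 31871 FPKM in the SW480-labelled RIP library and 108171 FPKM in its Input. In the libraries labelled DLD-1 it had 73102 FPKM in RIP and 99869 FPKM in Input. It ranked 1 in all 4, as the choice of these RNAs fixed, and the RIP library of SW480 was the lowest. These values were 7.91% and 20.2% of the FPKM sum of the SW480 RIP and Input columns, and 15.5% and 19.4% of the DLD-1 columns. FPKM divides by length and so weights short RNAs up. The values were whole numbers of reads at a gene length of 300 bases, namely 283290 and 474345 reads in SW480 and 552417 and 404433 in DLD-1. As a share of the total that the FPKM were divided by, RN7SL2 took 0.956% (95% Wilson interval 0.953 to 0.960) of RIP and 3.25% (3.24 to 3.25) of Input in SW480. In DLD-1 it took 2.19% (2.19 to 2.20) of RIP and 2.996% (2.99 to 3.01) of Input. The intervals cover counting error only, since reads are not independent molecules.

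RN7SL3 had 6554 FPKM in RIP and 3999 FPKM in Input under SW480. Under DLD-1 it had 2384 FPKM in RIP and 10699 FPKM in Input. It was thus higher in RIP than in Input in SW480 and lower in DLD-1. At its length of 299 bases these were 58064, 17479, 17955 and 43182 reads, so counting error was small beside the differences. It ranked 7, 15, 14 and 6 in the same order of columns.

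RIP was compared with Input as log2((RIP FPKM + 1)/(Input FPKM + 1)), and a gene was counted as different from a change of 2-fold. Among 12324 genes with an Input of at least 1 FPKM under both labels, 16.0% lay at least 2-fold below Input and 15.6% at least 2-fold above it in SW480. In DLD-1 19.2% lay at least 2-fold below and 15.1% at least 2-fold above. RN7SL2 had a log2 ratio of -1.76 in SW480 and of -0.45 in DLD-1. RN7SL3 had 0.71 in SW480 and -2.17 in DLD-1. Each was thus past 2-fold below Input under 1 of the 2 labels, and not the same label. Summed over its 3 genes, 7SL had log2 ratios of -1.55 and -0.55, so Input held 2.92 and 1.46 times as much as RIP. The SW480 value was past 2-fold below Input, as it was for 16.0% of the 12324 genes, and the DLD-1 value was not.

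The direction in DLD-1 depended on the Input used. Over the DLD-1 Input of the acRIP-seq table, scaled to the same median of protein-coding genes, the log2 ratio of 7SL was 0.68, and with the pseudogene rows added to the 3 genes it was -0.82. In SW480 the same alternatives gave -1.96 and -2.88.

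**Figure D1:**
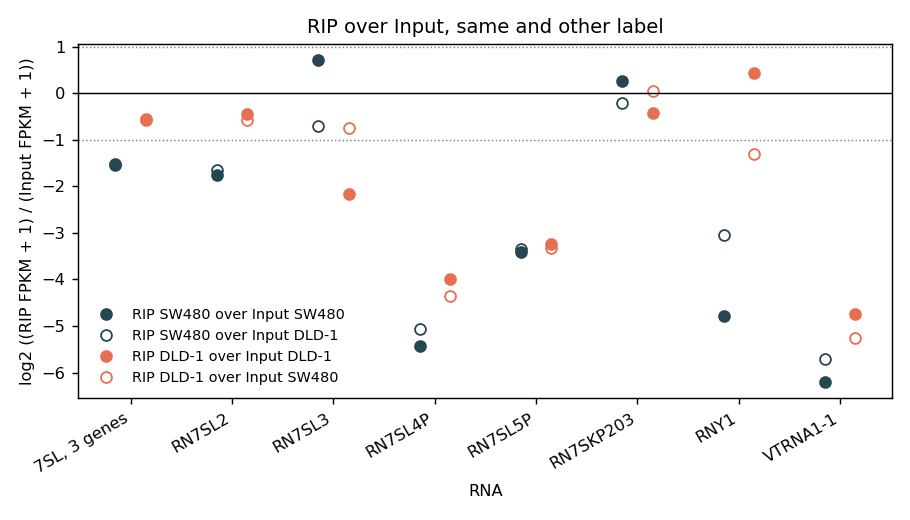
Log2 ratio of RIP to Input (y axis, pseudocount of 1 FPKM) for 7SL summed over its genes, for RN7SL2, RN7SL3 and for related RNAs (x axis). Filled circles use the Input of the same label, open circles the Input of the other label, and dotted lines mark 2-fold; there is 1 library per point and no error bar. RN7SL3 stands at 0.71 and -2.17 when filled and at -0.71 and -0.75 when open.

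The RIP libraries resembled the Input of the other label more than their own. Over 12301 protein-coding genes above 0 in the 4 columns, the RIP library labelled SW480 had r = 0.921 with the DLD-1 Input and r = 0.827 with the SW480 Input (Pearson, log2(FPKM + 1)). The RIP library labelled DLD-1 had r = 0.927 with the SW480 Input and r = 0.804 with the DLD-1 Input. These correlations run across genes, which are not independent replicates, and the acRIP-table Inputs were ordered alike (0.910 against 0.814, and 0.917 against 0.7997). Since the labels give 1 Input library per line, the acRIP-table Inputs may not be independent of the RIP-table ones. Which label is in question cannot be told apart from these files. Log2 ratios are therefore given as labelled and again over the Input of the other label.

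RN7SL3 relative to RN7SL2 followed the same split. RN7SL3 was 20.6% of RN7SL2 in the SW480 RIP library, 10.7% in the DLD-1 Input and 19.97% in the DLD-1 Input of the acRIP-seq table. It was 3.26% in the RIP library labelled DLD-1, 3.70% in the SW480 Input and 3.29% in the SW480 Input of the acRIP-seq table. Each of these 2 sets of 3 columns held the RIP library of 1 label with both Input columns of the other. How many other genes or gene pairs divide the columns in this way was not computed. RN7SL2 was chosen on its level, and which of these near-identical rows a read was given to is uncertain. The labels give 1 Input library per line, so the 2 Input columns of a line may not be independent of each other. Over the Input of the other label RN7SL3 had log2 ratios of -0.71 for the SW480 RIP and -0.75 for the DLD-1 RIP, and RN7SL2 had -1.65 and -0.57. 7SL summed over its genes had -1.52 and -0.57, close to its values as labelled.

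**Figure D2:**
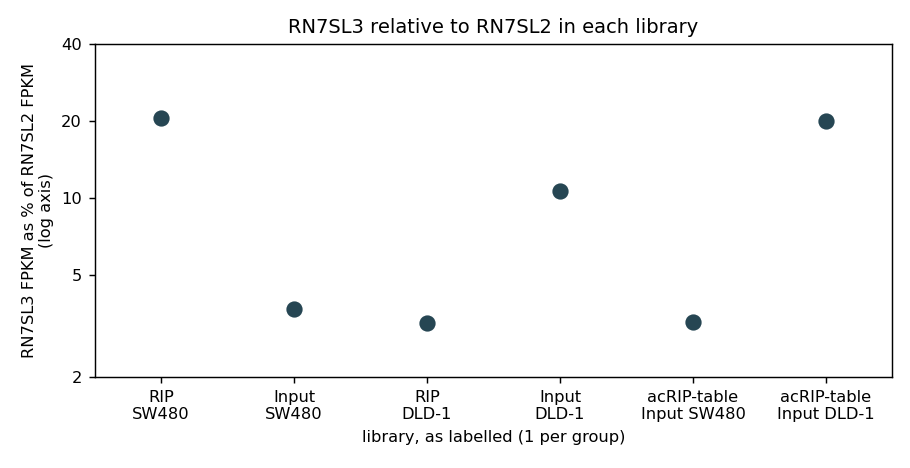
RN7SL3 FPKM as a percentage of RN7SL2 FPKM (y axis, log scale) in the 4 columns of the RIP-seq table and the 2 Input columns of the acRIP-seq table (x axis), 1 column per point. The RIP library labelled SW480 and both DLD-1 Inputs lie at 10.7% to 20.6%, and the other 3 lie at 3.26% to 3.70%.

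The 7SL genes are near-identical and have many pseudogene copies, so the row that a read was given to is uncertain, and how reads matching several rows were treated is not given in the sources used here. The table held 677 rows of RN7SL pseudogenes, of which 73 to 103 were above 0 in a column of the RIP-seq table. They summed to 461 FPKM in RIP and 9614 in Input in SW480, and to 656 and 7996 FPKM in DLD-1. RN7SL4P and RN7SL5P made up most of this in the Inputs. RN7SL4P had 143 FPKM in RIP and 6205 in Input in SW480, and 301 and 4804 FPKM in DLD-1. RN7SL5P had 289 and 3100 FPKM in SW480, and 309 and 2938 FPKM in DLD-1. Their log2 ratios, -5.42 and -3.99 for RN7SL4P and -3.42 and -3.25 for RN7SL5P, were further below 0 than those of RN7SL2 under both labels. Over the other Input they were -5.06 and -4.36 for RN7SL4P and -3.34 and -3.32 for RN7SL5P.

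In the Inputs of the acRIP-seq table the reads were divided among the copies otherwise. RN7SL5P had 85293 FPKM in SW480 and 52208 FPKM in DLD-1, and RN7SL674P, at 0 to 12.2 FPKM in the RIP-seq table, had 3554 and 2922 FPKM. RN7SL2 had 99171 FPKM (18.2% of the column sum) in SW480, where it ranked 1, and 25945 FPKM (5.55%) in DLD-1, where it ranked 4. RN7SL3 had 3266 and 5182 FPKM. RN7SL5P took 43.5% and 58.6% of all 7SL rows there, against 2.55% and 2.48% in the Inputs of the RIP-seq table. All 7SL rows together held 36.0% and 19.1% of the acRIP-table columns, and 22.8% and 23.1% of the RIP-table Inputs. The acRIP-seq table does not name its unit, and its values were read as FPKM.

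**Figure D3:**
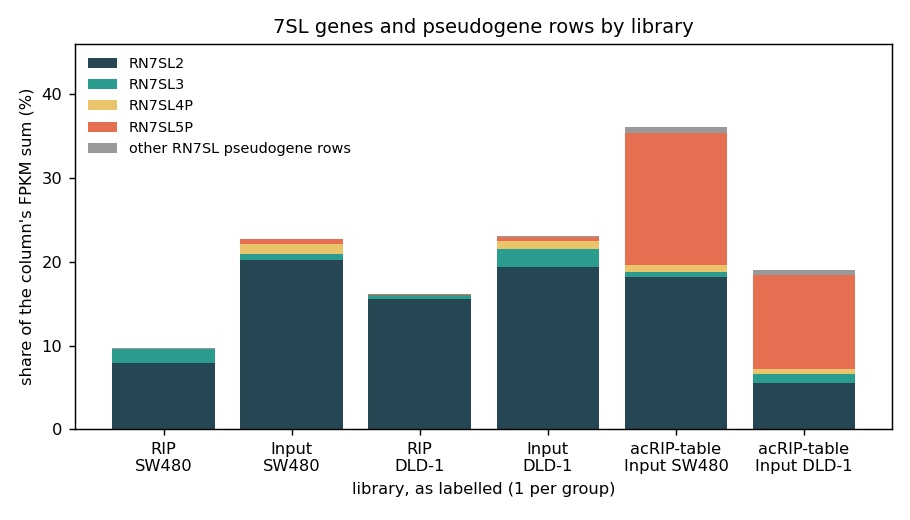
Share of each column's FPKM sum (y axis, percent) held by RN7SL2, RN7SL3, RN7SL4P, RN7SL5P and the remaining RN7SL pseudogene rows (stacked), for 4 libraries of the RIP-seq table and 2 Inputs of the acRIP-seq table (x axis). The stacks reach 9.65% and 16.2% in the RIP libraries and 19.1% to 36.0% in the Inputs, and RN7SL5P is a visible part of the last 2 bars.

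RN7SK was at 0, but its pseudogenes were not. Of 293 RN7SK pseudogene rows, 30 to 38 were above 0 in a column of the RIP-seq table, with sums of 392 FPKM in RIP and 524 FPKM in Input in SW480 and of 407 and 645 FPKM in DLD-1. RN7SKP203 led them, with 345 and 287 FPKM in SW480 and 299 and 399 FPKM in DLD-1, and its values were whole reads at 332 bases, the length of RN7SK. Its log2 ratios of 0.26 and -0.42 became -0.21 and 0.06 over the other Input, so it stayed within 2-fold. RN7SKP255 had 13.6 FPKM in RIP and 93.5 in Input in SW480, and 11.9 and 98.9 FPKM in DLD-1. The same uncertainty between near-identical rows holds for these.

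Other RNAs made by RNA polymerase III were taken as a list for comparison. Of the 14 symbols found, 13 were above 0 in some column and 10 passed the Input filter. The filter is on Input alone and keeps rows of few reads that were high there, so no count past 2-fold is given for this list. VTRNA1-3, which it removed, had 8.72 FPKM in RIP (23 reads) and was listed at 0 in Input in SW480, and was listed at 0 in RIP with 0.832 FPKM in Input (1 read) in DLD-1. RNY4, a Y RNA bound by the Ro protein, had 342 FPKM in Input (480 reads) in SW480 and was listed at 0 in RIP, and had 4.14 against 147 FPKM (10 and 190 reads) in DLD-1. VTRNA1-1, an RNA of the vault particle, had 1.36 FPKM in RIP and 174 in Input in SW480 (4 and 252 reads), and 3.61 and 123 FPKM in DLD-1 (9 and 164 reads), and over the other Input its log2 ratios were -5.71 and -5.25. RNY1 had 53.5 FPKM in RIP and 1509 in Input in SW480, and 606 and 446 FPKM in DLD-1. It was thus far below Input in SW480 and not in DLD-1, and over the other Input its log2 ratios were -3.04 and -1.31. RNU6ATAC, the U6-like RNA of the minor spliceosome, was the highest of the rows that passed, with log2 ratios of -0.69 and 0.73, and of -0.08 and 0.12 over the other Input. The RNAs of this list are shorter than 7SL, and the part of length in these values was not tested.

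The proteins that bind these RNAs are made from mRNAs, which were described by lists. Of 8 genes of the signal recognition particle and its receptor, 7 passed the Input filter. Their median log2 ratio was 0.65 in SW480 and 0.85 in DLD-1, against 0.05 and -0.05 over the 12324 genes that passed. At least 2-fold above Input were 2 in SW480 (SRP54 and SRPRB) and 2 in DLD-1 (SRP54 and SRP9), beside 15.6% and 15.1% of the 12324 genes. None lay 2-fold below, beside 16.0% and 19.2% of them. Over the other Input the medians were 0.69 and 0.71. SRP9, SRP54 and SRPRB were then at least 2-fold above under each label, beside 1139 of the 12324 genes in SW480 and 1154 in DLD-1. SRP54, the GTPase that binds signal peptides, was the highest, with 44.4 FPKM in RIP and 19.8 in Input in SW480 and 46.4 and 16.1 FPKM in DLD-1. Its log2 ratios were 1.12 and 1.47, and 1.41 and 1.18 over the other Input. SRPRA, a subunit of the receptor, was the lowest, with log2 ratios of 0.65 and -0.26, and of 0.16 and 0.22 over the other Input.

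The 7 genes of the 7SK particle and P-TEFb had medians of 0.36 in SW480 and 0.73 in DLD-1, which became 0.37 and 0.24 over the other Input. LARP7, which binds the 3′ end of 7SK, was the highest, with 38.5 FPKM in RIP and 13.2 in Input in SW480 and 29.3 and 10.4 FPKM in DLD-1. Its log2 ratios were 1.48 and 1.41, and 1.79 and 1.09 over the other Input. MEPCE, the enzyme that caps 7SK, was the lowest by the mean of both labels, with log2 ratios of 1.15 in SW480 and -1.83 in DLD-1, and of -0.20 and -0.48 over the other Input. HEXIM1, which inhibits P-TEFb when bound to 7SK, ran the other way, with -0.48 and 1.99, and had 0.93 and 0.58 over the other Input. HEXIM1 was singled out after its values were seen.

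Of 11 genes of RNase P and RNase MRP proteins, 8 passed the filter, with medians of 0.69 in SW480 and 0.02 in DLD-1. Over the other Input these were 0.37 and 0.54, so which label was higher depended on the Input. RPP38 was the highest, with log2 ratios of 1.31 and 1.24, and RPP25L was the lowest, with -0.10 and -1.03. Over the other Input RPP38 had 0.9997 and 1.55, and RPP25L had -0.41 and -0.72. RPP25, which did not pass the filter and was singled out after its values were seen, had 7.85 FPKM in RIP and 0.157 in Input in SW480, and 0.651 and 4.88 FPKM in DLD-1. It was thus above Input in SW480 and below it in DLD-1, and over the other Input its log2 ratios were 0.59 and 0.51. The 19 genes of RNA polymerase III and its factors had medians of 0.15 and 0.18, and of 0.31 and 0.18 over the other Input. SSB, the La protein that binds the 3′ end of new polymerase III transcripts, was the highest, with 2.09 and 1.14, and SNAPC4, a subunit of the complex at 7SK-type promoters, was the lowest, with -1.17 and -0.70. Over the other Input SSB had 1.71 and 1.52, and SNAPC4 had -0.42 and -1.45.

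**Figure D4:**
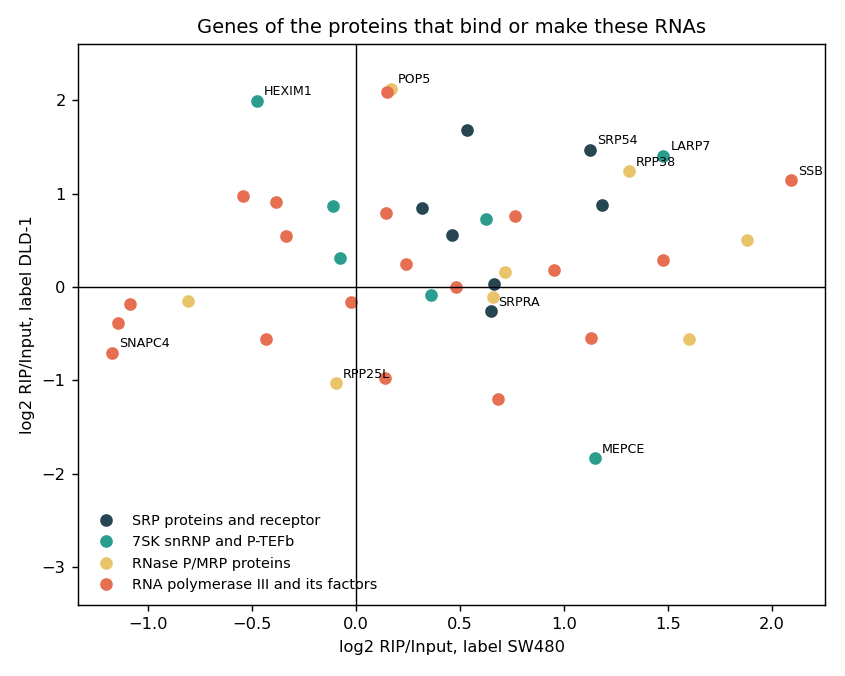
Log2 ratio of RIP to Input in the libraries labelled SW480 (x axis) and DLD-1 (y axis) for genes of 4 protein lists with an Input of at least 1 FPKM under both labels, 1 point per gene and no error bar. LARP7, SSB, SRP54 and RPP38 lie above 1 on both axes, whereas MEPCE and HEXIM1 lie on opposite sides of 0.

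No ac4C peak was named for any of the 6 RNAs in any of the 3 peak lists, and none overlapped their RefSeq spans on either strand. For comparison, 51.1% of 10350 protein-coding genes with an Input of at least 1 FPKM had a peak in SW480, 56.8% had a DLD-1 peak and 63.6% a pooled one. Of the other polymerase III RNAs described above, 1 of the 10 that passed the Input filter had a peak in each list. This was BCYRN1, at 4.8-fold in SW480, 3.64-fold in DLD-1 and 4.18-fold in the pooled list. Rows at 0 cannot be read as lacking ac4C. Nor can RN7SL2 and RN7SL3, since the row that a read was given to is uncertain and the peak caller is not given. No rate over all short RNAs was computed. Of the 677 RN7SL pseudogene rows, 2 had a peak in SW480, RN7SL376P (11.5-fold over Input) and RN7SL775P (13.5-fold). Both were also in the pooled list, at 9.96-fold and 12.7-fold, and none was listed in DLD-1.

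The nearest peak lay beside RPPH1. In DLD-1 it covered chr14:20343511-20343685 on the minus strand, upstream of RPPH1 with 99 bases between them and a fold of 212. The pooled list placed it at chr14:20343540-20343685 with a fold of 245, and the SW480 list held none there. Its host was given as the antisense RNA AL355075.4, which was at 0 in the RIP-seq table and at 0.142 and 0.290 FPKM in the acRIP-table Inputs of SW480 and DLD-1. The part of this peak that overlaps the RPPH1 sequence printed above lies before the octamer, and PARP2 starts on the opposite strand within it. Whether the counting used strand is not given in the sources used here, so reads of PARP2 and of its antisense partner cannot be told apart.

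Peaks were also listed on the partner mRNAs. Among genes passing the Input filter, 6 of 7 signal recognition particle genes had a peak in SW480 and 7 of 7 in DLD-1. The 7SK list had 4 of 7 and 5 of 7. The RNase P and RNase MRP list had 6 of 8 and 6 of 8, and the polymerase III list 6 of 19 and 15 of 19. Of the 10350 protein-coding genes that passed the filter, 51.1% and 56.8% had a peak. The highest folds in SW480 were 1500 for RPP25, whose Input was 0.157 FPKM there, 433 in the 3′ UTR of MEPCE and 409 in the 3′ UTR of POP5. In DLD-1 the highest was 109, in the 3′ UTR of SRP9. These are the authors' folds within each list. Which Input they were taken over is not given in the sources used here, so the doubt over the labels holds for them too.

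Among 4707 genes with an Input of at least 10 FPKM under both labels, those with the profile most like that of RN7SL2 over the 4 columns of the RIP-seq table were ABHD11, PWWP2B and NFKBIZ, at distances of 0.27, 0.31 and 0.31 on the centred log2 scale. ABHD11 had 22.3 and 66.2 FPKM in RIP and Input of SW480 and 40.4 and 65.6 FPKM in those of DLD-1.

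The total that FPKM were divided by was 29628966 and 25189477 fragments for the SW480 and the DLD-1 RIP library, and 10817661 to 14617145 for the Inputs. The epithelial markers EPCAM, KRT8, KRT18, KRT19 and CDH1 stood at 52.3 to 1642 FPKM in every column, CDX2 at 4.31 to 33.4 and VIL1 at 0.261 to 2.89, while PTPRC, PECAM1, COL1A1 and ALB were at no more than 0.381 FPKM.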

How the data were processed

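The authors deposited a table of FPKM for RIP and Input in both lines, a second table of Input values read here as FPKM, and ac4C peak lists with a p-value and a fold (ratio of acRIP to Input) per peak, called for each library and on pooled libraries. The authors' own RIP-to-Input ratios were not used. Per the labels, cutadapt 2.5 and HISAT2 2.1.0 were used. The builds named are GRCh38 and hg38, and also GRCm38, a mouse build. The counter, its use of strand and the peak caller are not given in the sources used here. The study's text also names an IgG control, and the comparison here was with Input.

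RNAs and gene lists were chosen with earlier results of these data known. Named genes were each of the 6 RNAs, the highest and lowest of each list by the mean log2 ratio of both labels, genes with listed peaks, and the 3 nearest profiles. Ratios used a pseudocount of 1 FPKM and a filter of 1 FPKM on both Inputs. The total each column was divided by was solved from the values of short RNAs at their RefSeq lengths. At these totals 68.2% to 76.0% of short RNAs above 0 gave whole reads within 0.01. Most of the protein-coding genes listed gave whole reads at no length tried, so their reads were not recovered. Solving the total and calling folds were tested on simulated data, and a fault this showed (a total too low by a whole factor) was mended. Python 3 scripts used numpy, pandas and scipy. Alternatives covered pseudocounts, filters, scaling, the Input used and the counting of copies.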

Additional observations from a re-analysis of the deposited data

Results flagged for a closer look

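Some genes named in the report moved in opposite directions under the 2 labels. With 1 library per group these differences were not tested. These genes were picked because their signs differed as labelled, so their signs over the other Input are no test of the labels. No share of all tested genes was computed for these signs. Some list genes not given here, such as SNAPC1, differed in sign over either Input. The log2 ratio in SW480 minus that in DLD-1 was 2.88 for RN7SL3, 4.77 for RPP25, 2.98 for MEPCE, 0.91 for SRPRA and 0.68 for RN7SKP203. It was -5.23 for RNY1, -2.47 for HEXIM1 and -1.41 for RNU6ATAC. Over the Input of the other label RN7SL3 (-0.71 and -0.75), RPP25 (0.59 and 0.51), MEPCE (-0.20 and -0.48), HEXIM1 (0.93 and 0.58), RNY1 (-3.04 and -1.31) and SRPRA (0.16 and 0.22) had the same sign in both RIP libraries, and RN7SKP203 (-0.21 and 0.06) and RNU6ATAC (-0.08 and 0.12) did not.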

How the results depend on the processing

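No paired analysis was made, since the values come from no test. RIP and Input are from the same lines, but a fit with the line as a block, which would leave 1 residual degree of freedom, was not made. Of the values compared, 7SL summed over its genes and RN7SL2 stayed below Input in SW480 under every alternative tried, but not always by 2-fold, and in DLD-1 both turned above it over the acRIP-table Input. For the 7SL sum in SW480 the log2 ratio was -1.72 centred on protein-coding genes, -1.33 rescaled without the 6 RNAs, -1.52 over the Input of the other label, -1.96 over the acRIP-table Input, -0.29 over that of the other label, -1.76 for RN7SL2 alone and -1.65 with the pseudogene rows. In DLD-1 the same alternatives gave -0.62, -0.52, -0.57, 0.68, -0.99, -0.45 and -0.64. With the pseudogene rows and another Input, alternatives chosen after seeing the data, the sum was -1.61 over the Input of the other label, -2.88 over the acRIP-table Input and -1.79 over that of the other label in SW480, and -0.68, -0.82 and -1.91 in DLD-1. RN7SL2 had -1.94, -1.55, -1.65, -2.19 and -0.30 in SW480, and -0.52, -0.42, -0.57, 0.90 and -0.99 in DLD-1, under the first 5 of these alternatives. Pseudocounts of 0.1 and 10 moved neither by more than counting error.

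The share of RN7SL2 in RIP and Input of SW480 and in RIP and Input of DLD-1 was 9.37%, 31.2%, 20.2% and 29.6% of the protein-coding sum, 8.74%, 25.6%, 18.5% and 24.7% of the sum without the 6 RNAs, and 0.956%, 3.25%, 2.19% and 2.996% of reads. In the acRIP-table Inputs it was 18.2% and 5.55%.

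Genes at least 2-fold below and above Input numbered 1977 and 1926 in SW480 and 2369 and 1862 in DLD-1. With no filter they numbered 3621, 3798, 4832 and 3155, and with an Input of at least 10 FPKM 613, 526, 608 and 636, where the filter itself changes the genes counted. Over the other Input, 1448 lay below and 1139 above in SW480, and 1456 below and 1154 above in DLD-1. The cause was not tested. Partner genes with a peak fell from 37 to 19 in DLD-1 and from 35 to 20 in the pooled list when only peaks with a p-value below the list's median were kept, since fewer peaks remain. The 6 RNAs had 0 peaks under each alternative. Where a row was listed at 0 or held under 10 reads, as for RNY4 and VTRNA1-1 in RIP, depth limits the ratio, and with 1 library per group no biological spread was measured.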
